A study of Mus musculus with 6 samples.

Results

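Amino acids enter and leave liver cells, and cross the membrane of their lysosomes, through transporters of several solute carrier families. Members of the Slc1, Slc6 and Slc38 families couple uptake to the sodium gradient, several of Slc36 to protons, and many Slc7 proteins are light chains that exchange amino acids and need an Slc3 heavy chain, to which a disulfide bond links them, to reach the plasma membrane. In the liver these carriers supply the enzymes of nitrogen metabolism, which are arranged in zones along the path of the blood. The genes described here were taken by symbol from the Slc1, Slc3, Slc6, Slc7, Slc36, Slc38 and Slc43 families. The symbols matched 63 of the 31950 genes measured, and 59 remained after *Slc1a2*, *Slc1a5*, *Slc38a3* and *Slc38a4* were set aside. Of the 59, 56 carry the symbol of a carrier, while *Slc7a6os*, *Slc36a1os* and *Slc36a3os* are neighbours on the opposite strand that are named after one. Some carriers of these families, *Slc6a4* for serotonin among them, move substrates other than amino acids.

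The livers of 3 WT mice and of 3 *β-catenin Δ(ex3)/+* mice, called mutant from here on, were sequenced with 1 library each, and the labels give an age of 8 weeks. The mutant mice carry 1 allele of *Ctnnb1*, the β-catenin gene, that has lost exon 3, so that the protein escapes the phosphorylation that marks it for degradation. The labels name no Cre driver, treatment or strain. The study describes removal of the exon in hepatocytes by Cre under the albumin promoter, constitutive or induced with tamoxifen, and in liver by adenovirus carrying Cre, and which of these gave the sequenced livers is not given in the sources used here. It reports that mice with the constitutive removal died before the labelled age. The name in the labels, *β-catenin Δ(ex3)/+*, is the one it uses for livers of the mice given tamoxifen. Values are FPKM, the fragments of a gene scaled by transcript length and by the mapped total of the library, so that levels can be compared between genes. Steps in the low values of single-exon genes gave approximate depths of 24.8, 24.7 and 24.6 M fragments for WT replicates 1 to 3 and 19.2, 17.04 and 19.6 M for the mutant replicates 1 to 3. From 14.9% to 17.99% of these low values lay on the steps, so the depths are estimates. *Ctnnb1* itself had 25.9, 27.95 and 27.3 FPKM in the WT and 25.4, 25.2 and 25.04 FPKM in the mutant livers, and a value per gene does not show the loss of 1 exon.

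Other genes separated the livers in the same way as the genotype, which bears on every comparison that follows. *Xist*, transcribed from the inactive X chromosome of females, had 20.3, 22.2 and 21.1 FPKM in the WT and 0.0146, 0 and 0.0128 FPKM in the mutant livers. The Y-linked genes *Eif2s3y* and *Ddx3y* had at most 0.0169 FPKM in any WT liver, and their means in mutant livers were 9.51 and 5.89 FPKM. Sex and genotype therefore cannot be told apart. The 6 measured genes of the young liver list all fell in mutant livers, with a summed level of 3816, 3847 and 3884 FPKM in the WT and 3.98, 4.37 and 4.39 FPKM in the mutant livers. The most abundant of them in WT livers, the imprinted RNA *H19*, had 2320.4, 2374 and 2364 FPKM in the WT and 0.0107, 0.0480 and 0.0192 FPKM in the mutant livers. The growth factor gene *Igf2* had a mean of 829 FPKM in WT livers and was listed at 0 in every mutant liver, and *Afp*, for the fetal serum protein alpha-fetoprotein, had 608 ± 5.94 FPKM in WT and 2.55 ± 0.226 FPKM in mutant livers (SD, n = 3 each). These transcripts are abundant in fetal and newborn liver and low in adult liver. Their level in WT livers goes against the labelled age, so developmental stage and genotype cannot be told apart either. The other fallen genes of that list were *Gpc3* (WT mean 56.00 FPKM, mutant mean 1.58 FPKM), *Dlk1* (WT mean 1.35 FPKM, mutant mean 0.0827 FPKM) and *Igf2bp3* (WT mean 2.61 FPKM, mutant mean 0.000653 FPKM).

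Of the 59 genes, *Slc3a1* and *Slc6a9* passed both the significance and the fold threshold, and both were higher in mutant livers. *Slc3a1*, for the heavy chain rBAT of the kidney cystine carrier, rose from under 1.2 to about 40 FPKM. *Slc6a9*, for the glycine carrier GlyT1, rose by a factor of about 4. Of the 59 genes, 23 had a mean of at least 0.5 FPKM over the 6 livers, the level taken here as expressed, and entered the test with 13243 genes in all. Of these 23, 21 reached 0.5 FPKM in both group means, while *Slc43a2* and *Slc7a4* passed only through the WT livers. At an adjusted p under 0.05 and a fold change of at least 2 on the log2(FPKM + 1) scale, 2 of the 23 were higher in mutant livers and 0 lower. That is 8.70% higher, next to 8.17% of all genes tested that were higher and 4.52% that were lower. With the adjusted p alone, 9 of the 23 were higher (39.1%) and 6 lower (26.1%), next to 37.4% and 19.6% of all genes tested. The 6 that were lower were *Slc6a12*, *Slc38a2*, *Slc38a7*, *Slc43a1*, *Slc7a4* and *Slc7a7*. Of these, *Slc7a4* passed the filter only through the group in which it was high. A filter at 1 FPKM left it out, and 5 of 19 members were then lower (26.3%, next to 19.9% of all genes). The count of 6 fell to between 3 and 5 whichever liver was left out, in fits with 1 liver fewer. It was 3 without WT replicate 3 (14.3%, next to 16.8% of all genes), without mutant replicate 2 (13.0%, next to 18.3%) and with a block for the replicate number (13.0%, next to 18.1%), so the share of lower members lay above or below that of all genes. The 2 groups of livers did not overlap for 10 members that were higher and 7 that were lower, next to 43.0% and 23.0% of all genes tested. The scale understates the change of genes near 1 FPKM, which can miss the fold threshold with a larger ratio of FPKM. Within a group, the SD was a median of 8.18% of the mean in WT and 7.57% in mutant livers, over 10969 genes. For the 23 members it ran in mutant livers from 0.27% for *Slc6a13* to 70.3% for *Slc36a1*. The p-values from limma rest on this spread. The labels do not say how the replicates were taken, so how far it measures variation between animals is not known.

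The median log2 fold change of the 23 members was 0.11, and that of all genes tested 0.14. Median-ratio scaling moved the median of all genes by -0.12 and quantile normalization by -0.16, so changes of about this size depend on the scaling. Some abundant members moved further with quantile normalization, *Slc1a4* from 0.17 to -0.14 and *Slc6a12* from -0.35 to -0.65. Larger changes can therefore depend on the scaling too. After these scalings the split by adjusted p was 7 higher to 7 lower and 7 higher to 8 lower, while of all genes tested 28.0% were higher and 26.2% lower after median-ratio scaling and 25.3% and 29.1% after quantile normalization. The split of all genes thus moved in the same direction. In bulk tissue, fewer cells of a type and less RNA per cell cannot be told apart. Levels spanned a wide range, from 0 in every liver for 5 members to more than 40 FPKM for *Slc6a13*. Summed over the 59 genes, the level was 160.4 ± 6.61 FPKM in WT and 239 ± 2.87 FPKM in mutant livers (SD, n = 3 each, exact permutation test, 2-sided p = 0.1, which is the lowest attainable with 3 livers in each group). Most of the difference between the sums lay in *Slc3a1* (WT mean 0.972 FPKM, mutant mean 41.5 FPKM) and *Slc6a13* (WT mean 45.8 FPKM, mutant mean 66.1 FPKM). The sum therefore does not describe a rise of the members as a set. The 8 members most abundant in each group made up 76.3% of the sum in WT and 81.9% in mutant livers.

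**Figure D1:**
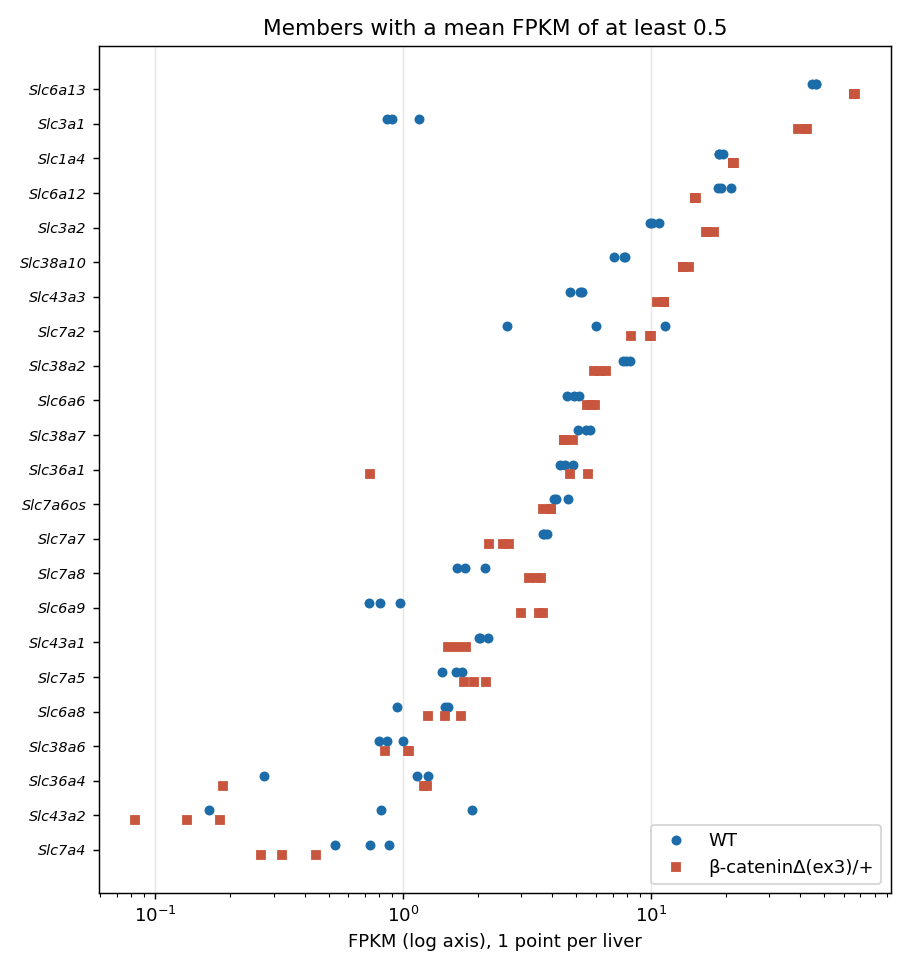
FPKM of the 23 members with a mean of at least 0.5, on a log axis, with 1 point per liver (circles WT, squares *β-catenin Δ(ex3)/+*), ordered by mean level. *Slc3a1* stands at about 1 FPKM in WT and about 40 FPKM in mutant livers, and *Slc7a2*, *Slc36a1*, *Slc36a4* and *Slc43a2* spread widely within a group.

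Both heavy chains rose, by different amounts. *Slc3a1* (ENSMUSG00000024131, chromosome 17 from 85028376 to 85064236) had 0.897, 0.863 and 1.16 FPKM in the WT and 42.4, 42.8 and 39.4 FPKM in the mutant livers. The groups were far apart, and within each group the livers lay close together. The level went from 0.972 ± 0.160 to 41.5 ± 1.9 FPKM (SD, n = 3 each), a ratio of 42.7, and its log2 fold change was 4.43 ± 0.0739 (SE, adjusted p = 1.76e-07 by limma). It was number 18 by level among the 59 members in WT and number 2 in mutant livers. Its exons overlap exons of *Prepl*, a gene on the opposite strand, and whether the authors' counting used strand is not given in the sources used here. *Prepl* had 1.78, 2.05 and 1.87 FPKM in the WT and 5.49, 6.36 and 6.38 FPKM in the mutant livers, above *Slc3a1* in WT and below it in mutant livers, and was itself higher past both thresholds, with a log2 fold change of 1.29 ± 0.0747 (SE, adjusted p = 3.21e-05 by limma). Its part in the level of *Slc3a1* was not tested.

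The light chains that pair with rBAT were near 0. *Slc7a9*, for b0,+AT, which forms the cystine and dibasic amino acid exchanger with rBAT, had 0.0303, 0 and 0.0306 FPKM in the WT and 0, 0 and 0 FPKM in the mutant livers. *Slc7a13*, for AGT1, another rBAT partner, was listed at 0 in 5 of the 6 livers and had 0.0189 FPKM in WT replicate 1. Both partner RNAs were listed at 0 in every mutant liver, where the heavy chain RNA was high.

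The heavy chain 4F2hc (CD98), encoded by *Slc3a2* (ENSMUSG00000010095, chromosome 19 from 8706882 to 8723369), also rose. It had 10.1, 9.93 and 10.8 FPKM in the WT and 16.7, 18.03 and 16.8 FPKM in the mutant livers, and the groups did not overlap. Its log2 fold change was 0.69 ± 0.0534 (SE, adjusted p = 0.000112 by limma), under the fold threshold. The partner chains of 4F2hc went in different directions. *Slc7a8*, for LAT2, which exchanges neutral amino acids, had 1.78, 1.65 and 2.15 FPKM in the WT and 3.23, 3.59 and 3.46 FPKM in the mutant livers, and rose with a log2 fold change of 0.63 ± 0.0824 (SE, adjusted p = 0.00106 by limma). *Slc7a7*, for y+LAT1, which exports dibasic amino acids in exchange for neutral ones, had 3.71, 3.68 and 3.81 FPKM in the WT and 2.22, 2.67 and 2.52 FPKM in the mutant livers, and fell with a log2 fold change of -0.45 ± 0.0657 (SE, adjusted p = 0.00174 by limma). In the GENCODE M21 annotation its exons overlap exons of *Oxa1l* on the opposite strand. In the deposited coordinates they do not, since *Oxa1l* ends at 54367043 and *Slc7a7* starts at 54369442. *Oxa1l* had 14.1 ± 1.01 FPKM in WT and 7.68 ± 0.461 FPKM in mutant livers (SD, n = 3 each). *Slc7a5*, for LAT1, the carrier of large neutral amino acids that dividing cells use, had 1.72, 1.44 and 1.63 FPKM in the WT and 1.77, 2.16 and 1.94 FPKM in the mutant livers. The livers did not overlap, and the log2 fold change of 0.19 ± 0.0775 (SE, adjusted p = 0.0863 by limma) did not pass the test.

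The other partner chains were below the level taken as expressed. *Slc7a6*, for y+LAT2, had 0.244, 0.373 and 0.288 FPKM in the WT and 0.235, 0.225 and 0.267 FPKM in the mutant livers, and these ranges overlapped. *Slc7a10*, for Asc-1, had 0, 0.0862 and 0.0662 FPKM in the WT and 0.124, 0.0606 and 0.0421 FPKM in the mutant livers. *Slc7a11*, for the cystine and glutamate exchanger xCT, had 0.00291, 0.00290 and 0.0118 FPKM in the WT and 0.00323, 0.0342 and 0.0127 FPKM in the mutant livers. None of these 3 separated the genotypes. Summed over the 6 partners, the light chain level was 7.55 ± 0.373 FPKM in WT and 8.18 ± 0.583 FPKM in mutant livers (SD, n = 3 each, exact permutation test, 2-sided p = 0.200). Relative to 4F2hc this was 0.733 ± 0.00485 FPKM of light chains per FPKM of heavy chain in WT and 0.477 ± 0.0195 in mutant livers (SD, n = 3 each, exact permutation test, 2-sided p = 0.1). The heavy chain RNA was in excess in both groups, and more so in the mutant livers.

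**Figure D2:**
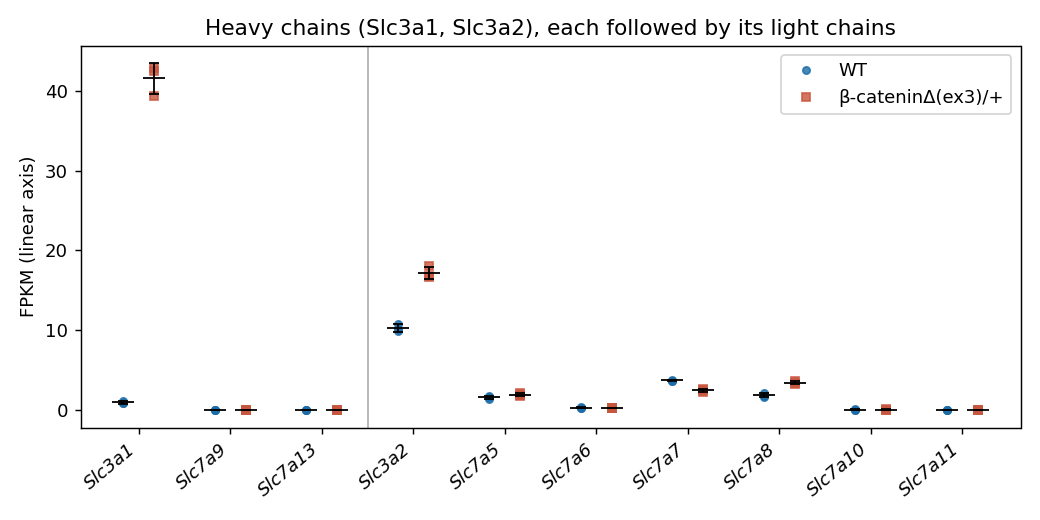
FPKM of the heavy chains *Slc3a1* and *Slc3a2*, each followed by its light chains, on a linear axis, with 1 point per liver and bars for the mean and SD of 3 livers (circles WT, squares *β-catenin Δ(ex3)/+*). *Slc3a1* is high in mutant livers while its partners *Slc7a9* and *Slc7a13* stay at or near 0, and the partners of *Slc3a2* lie below it.

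Among the sodium- and chloride-coupled carriers of the Slc6 family, 5 of 19 were expressed. The most abundant member in both groups was *Slc6a13* (ENSMUSG00000030108, chromosome 6 from 121300227 to 121337733), for GAT2, a carrier of GABA and taurine in liver. It had 46.5, 46.3 and 44.6 FPKM in the WT and 66.03, 66.3 and 66.1 FPKM in the mutant livers. The groups did not overlap, and its log2 fold change was 0.52 ± 0.0327 (SE, adjusted p = 4.45e-05 by limma). Its neighbour *Slc6a12*, which lies 5342 bases further along the same strand, encodes the betaine and GABA carrier BGT1 and went the other way. It had 18.6, 19.2 and 21.1 FPKM in the WT and 15.1, 15.2 and 15.1 FPKM in the mutant livers, a log2 fold change of -0.35 ± 0.0554 (SE, adjusted p = 0.00237 by limma). The gene pair thus moved in opposite directions, which both scalings left in place. The sizes depend on the scaling, with log2 fold changes of 0.26 for *Slc6a13* and -0.65 for *Slc6a12* after quantile normalization.

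*Slc6a9* (ENSMUSG00000028542, chromosome 4 from 117834506 to 117875198), for GlyT1, which takes up glycine, was the other member past both thresholds. It had 0.806, 0.727 and 0.973 FPKM in the WT and 3.00, 3.53 and 3.66 FPKM in the mutant livers. Every mutant liver was above every WT liver, at a ratio of means of 4.07, and the log2 fold change was 1.26 ± 0.0874 (SE, adjusted p = 6.83e-05 by limma). Its exons overlap exons of *Ccdc24*, *B4galt2* and *Gm17114* on the opposite strand. *Ccdc24* had 0.822, 1.13 and 0.209 FPKM in the WT and 1.18, 0.876 and 0.0508 FPKM in the mutant livers, *B4galt2* 0.210, 0.675 and 0.274 FPKM in the WT and 0.0703, 0 and 0.0617 FPKM in the mutant livers, and *Gm17114* was listed at 0 in 5 livers and had 0.809 FPKM in mutant replicate 3. The WT mean of *Ccdc24* was 0.721 FPKM, next to 0.835 FPKM for *Slc6a9*, and the part of these genes in its change was not tested. *Slc6a6*, for the taurine carrier TauT, had 4.87 ± 0.265 FPKM in WT and 5.74 ± 0.223 FPKM in mutant livers (SD, n = 3 each), a log2 fold change of 0.20 ± 0.0573 (SE, adjusted p = 0.0261 by limma) that was -0.00078 after quantile normalization. It did not pass with median-ratio scaling (0.052, limma adjusted p = 0.469) or with the replicate block (limma adjusted p = 0.0701). The call was also lost without WT replicate 2 or 3 or mutant replicate 2 or 3 (limma adjusted p from 0.0612 to 0.0788). *Slc6a8*, for the creatine carrier, had 1.31 ± 0.318 FPKM in WT and 1.48 ± 0.230 FPKM in mutant livers (SD, n = 3 each), and its livers overlapped.

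In the Slc1 family only *Slc1a4*, for ASCT1, an exchanger of alanine, serine and cysteine, was expressed of the 5 members. It had 18.9, 19.5 and 18.9 FPKM in the WT and 21.3, 21.5 and 21.7 FPKM in the mutant livers. The groups did not overlap, but the difference was small, with a log2 fold change of 0.17 ± 0.0363 (SE, adjusted p = 0.00952 by limma). Its direction depends on the scaling, since the value was -0.0012 with median-ratio scaling and -0.14 with quantile normalization (limma adjusted p = 0.0312). The glutamate carriers *Slc1a1*, *Slc1a3*, *Slc1a6* and *Slc1a7* had at most 0.137 FPKM in any liver. The values of the 4 genes set aside follow. *Slc1a2*, for the glutamate carrier GLT-1, had 0.283 ± 0.0424 FPKM in WT and 20.4 ± 0.193 FPKM in mutant livers (SD, n = 3 each), and *Slc1a5*, for ASCT2, had 2.26 ± 0.349 FPKM in WT and 7.62 ± 0.200 FPKM in mutant livers (SD, n = 3 each). The system N carrier gene *Slc38a3* had 87.02 ± 3.67 FPKM in WT and 109 ± 4.98 FPKM in mutant livers (SD, n = 3 each), and *Slc38a4* had 97.5 ± 2.07 FPKM in WT and 93.4 ± 0.664 FPKM in mutant livers (SD, n = 3 each). The study reports, with immunoblots, no obvious effect of β-catenin on glutamine transporters in livers, and lists antibodies to SLC1A5, SLC38A1 and SLC38A2. Immunoblots measure protein, while the values here are RNA.

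In the Slc38 family 4 of 9 members were expressed. *Slc38a10*, a largely intracellular member of this family of sodium-coupled neutral amino acid carriers, was the most abundant of them in mutant livers. It had 7.11, 7.85 and 7.77 FPKM in the WT and 13.5, 14.3 and 13.5 FPKM in the mutant livers, and rose with a log2 fold change of 0.78 ± 0.0541 (SE, adjusted p = 6.74e-05 by limma). *Slc38a2*, for SNAT2, a system A carrier of small neutral amino acids that cells induce when these are scarce, was the most abundant of them in WT livers. It had 7.95 ± 0.284 FPKM in WT and 6.25 ± 0.349 FPKM in mutant livers (SD, n = 3 each), and fell with a log2 fold change of -0.30 ± 0.0565 (SE, adjusted p = 0.00483 by limma). *Slc38a7*, for a carrier that moves glutamine out of lysosomes, had 5.41 ± 0.324 FPKM in WT and 4.59 ± 0.224 FPKM in mutant livers (SD, n = 3 each), and fell by a smaller amount, with a log2 fold change of -0.20 ± 0.0616 (SE, adjusted p = 0.0343 by limma) that did not pass without the expression filter (limma adjusted p = 0.0519). Nor did it pass with the replicate block (limma adjusted p = 0.0947). The call was also lost without WT replicate 2 or 3 or mutant replicate 2 or 3 (limma adjusted p from 0.0796 to 0.104), at log2 fold changes from -0.19 to -0.17. *Slc38a6* had 0.885 ± 0.103 FPKM in WT and 0.983 ± 0.122 FPKM in mutant livers (SD, n = 3 each), with overlapping livers. *Slc38a9*, for the lysosomal arginine sensor of the mTORC1 pathway, was just below the level taken as expressed, at 0.422 ± 0.0585 FPKM in WT and 0.520 ± 0.0633 FPKM in mutant livers (SD, n = 3 each).

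All 3 members of the Slc43 family were expressed. *Slc43a3*, for a carrier of purine nucleobases rather than of amino acids, had 5.17, 5.26 and 4.71 FPKM in the WT and 11.3, 11.3 and 10.6 FPKM in the mutant livers. The mutant livers were all higher, at a ratio of means of 2.19. The log2 fold change of 0.996 ± 0.0578 (SE, adjusted p = 3.19e-05 by limma) lay just under the threshold of 1, and it was 1.12 with a pseudocount of 0.1. *Slc43a1*, for LAT3, a carrier of branched-chain amino acids, had 2.09 ± 0.0994 FPKM in WT and 1.65 ± 0.137 FPKM in mutant livers (SD, n = 3 each), and fell with a log2 fold change of -0.22 ± 0.0642 (SE, adjusted p = 0.0277 by limma) that did not pass without the expression filter (limma adjusted p = 0.0563). Nor did it pass with the replicate block (limma adjusted p = 0.0668). The call was also lost without WT replicate 1, 2 or 3 or mutant replicate 2 or 3 (limma adjusted p from 0.0593 to 0.0789), at log2 fold changes from -0.23 to -0.18. *Slc43a2*, for LAT4, had 0.165, 0.813 and 1.9 FPKM in the WT and 0.135, 0.183 and 0.0828 FPKM in the mutant livers. The WT livers spread from the level of the mutant livers to well above it, and the log2 fold change of -0.69 ± 0.317 (SE, adjusted p = 0.110 by limma) did not pass the test. Without WT replicate 1 it was -1.02 (limma adjusted p = 0.0135). *Slc43a2* passed the filter only through the WT livers, so the filter favoured this direction and no conclusion is drawn from that call. Without WT replicate 2 or 3 it fell below the filter.

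The next 3 members had 1 or 2 livers away from the rest of their group. *Slc7a2*, for CAT2, the carrier of arginine, lysine and ornithine of hepatocytes, had 6.01, 2.63 and 11.4 FPKM in the WT and 9.88, 8.28 and 10.1 FPKM in the mutant livers. The WT livers lay on both sides of the mutant livers, and the log2 fold change of 0.61 ± 0.426 (SE, adjusted p = 0.265 by limma) did not pass the test. It was 0.16 without WT replicate 2 (limma adjusted p = 0.641) and 1.04 without WT replicate 3 (limma adjusted p = 0.0345). *Slc36a1*, for the proton-coupled carrier PAT1 of lysosomes, had 4.30, 4.52 and 4.85 FPKM in the WT and 0.733, 4.69 and 5.57 FPKM in the mutant livers. Only mutant replicate 1 was low, and without it the log2 fold change went from -0.47 to 0.14 (limma adjusted p = 0.248). *Slc36a4*, for PAT4, had 0.275, 1.26 and 1.14 FPKM in the WT and 1.25, 0.187 and 1.21 FPKM in the mutant livers. It was low in 1 liver of each group, and the others lay close together. GENCODE M21 lists 5 transcripts for *Slc7a2*, 5 for *Slc36a1*, 3 for *Slc36a4* and 11 for *Slc43a2*, and whether the spread comes from how fragments were assigned to transcripts was not tested.

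The remaining expressed members were *Slc7a4* and *Slc7a6os*. *Slc7a4*, which resembles the cationic amino acid carriers, had 0.714 ± 0.173 FPKM in WT and 0.345 ± 0.0909 FPKM in mutant livers (SD, n = 3 each), a log2 fold change of -0.35 ± 0.0992 (SE, adjusted p = 0.0257 by limma). It passed the filter only through the WT livers, so the filter favoured this direction and no conclusion is drawn from the call. It did not pass with the replicate block (limma adjusted p = 0.0525), without mutant replicate 1 (limma adjusted p = 0.0770) or without mutant replicate 2 (limma adjusted p = 0.0685), and without WT replicate 1 or 3 it fell below the filter. *Slc7a6os*, which encodes no carrier, had 4.27 ± 0.301 FPKM in WT and 3.85 ± 0.168 FPKM in mutant livers (SD, n = 3 each), a log2 fold change of -0.12 ± 0.0634 (SE, adjusted p = 0.154 by limma). It passed as lower with median-ratio scaling (-0.26, limma adjusted p = 0.0163) and with quantile normalization (-0.30, limma adjusted p = 0.00949). Of the cationic carriers proper, *Slc7a1* for CAT1 had 0.228 FPKM in WT and 0.155 FPKM in mutant livers.

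Of the 59 genes, 36 were below the level taken as expressed, 21 of them under 0.1 FPKM in every liver and 5 listed at 0 in all 6. For 2 of the 36, *Slc36a2* and *Slc38a9*, the mean of mutant livers reached 0.5 FPKM. *Slc36a2*, for the proton-coupled glycine and proline carrier PAT2, had 0.0237, 0 and 0 FPKM in the WT and 0.828, 0.751 and 0.881 FPKM in the mutant livers. It was at or near 0 in WT and measured in every mutant liver, at a level below 1 FPKM. It lies 19272 bases from *Slc36a1* on the opposite strand. With no filter on expression, 2 of the 36 passed an adjusted p of 0.05 as higher and 6 as lower. The 31 of them that this fit could test thus had 6.45% higher and 19.4% lower, next to 5.95% and 7.29% of all 13285 tested genes below the filter. The other higher one was *Slc1a3*, and the lower ones were *Slc38a5*, *Slc6a4*, *Slc6a11*, *Slc6a16*, *Slc6a19* and *Slc6a21*, names chosen after their values were seen. *Slc38a5*, for SNAT5, had 0.488, 0.476 and 0.522 FPKM in the WT and 0, 0 and 0 FPKM in the mutant livers, and *Slc6a19*, for the neutral amino acid carrier B0AT1 of kidney and intestine, had 0.271, 0.186 and 0.162 FPKM in the WT and 0, 0 and 0 FPKM in the mutant livers. Both were thus measured in each WT liver and stood at 0 in the mutant livers, all below 0.6 FPKM.

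**Figure D3:**
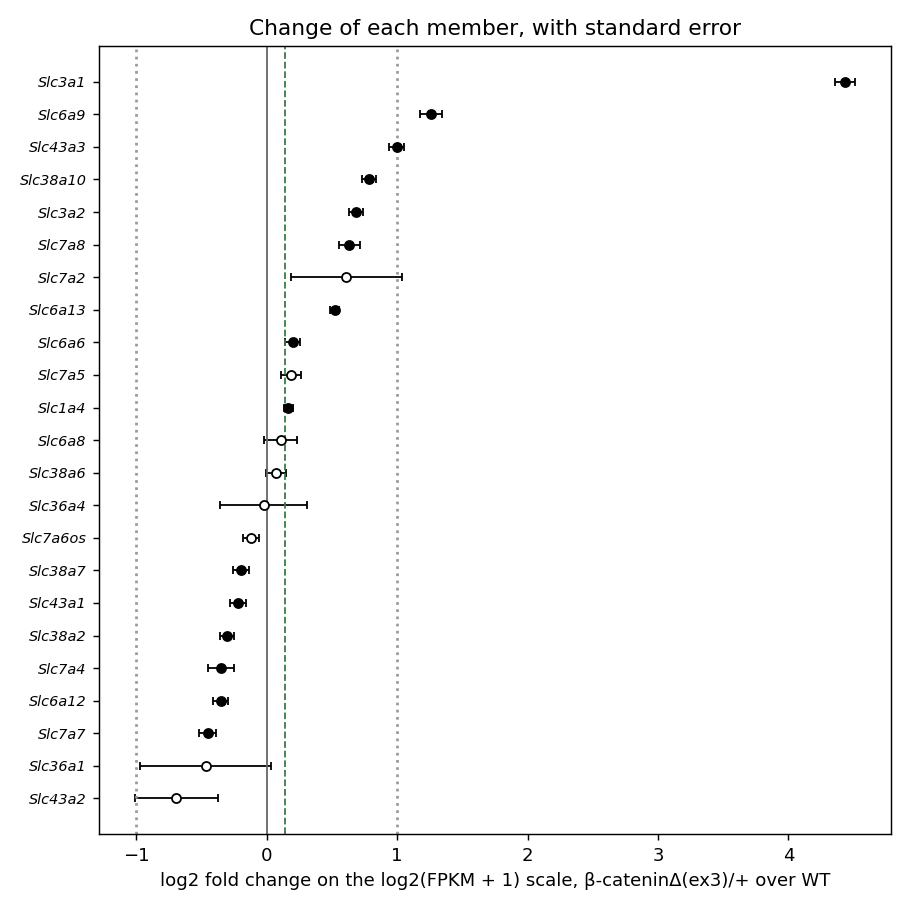
Log2 fold change on the log2(FPKM + 1) scale of the 23 expressed members in *β-catenin Δ(ex3)/+* over WT livers, with bars for the standard error from limma. Filled points have an adjusted p under 0.05, dotted lines mark -1 and 1, and the dashed line marks the median of all 13243 genes tested (0.14). *Slc3a1* and *Slc6a9* lie beyond 1, and the directions of *Slc1a4*, *Slc6a6*, *Slc6a8* and *Slc38a6* change with the scaling.

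Sequence upstream of the genes was searched on both strands for CTTTGAT, a core of the sites bound by TCF and LEF factors, and for TGATGNAA, a core of the sites bound by ATF4 with C/EBP factors. The windows from RefSeq (GRCm38.p6) run from 250 bases before to 50 after a gene's start, and 45 of the 59 members had at least 1 window. CTTTGAT was in 4 of 63 member windows (6.35%) and in 3.73% of all 32851 windows. TGATGNAA was in 5 of 63 member windows (7.94%) and in 3.97% of all windows. These 5 windows belong to 4 genes, since *Slc7a7* has overlapping windows that share a site. Among the 17 expressed members with a window, CTTTGAT was in that of *Slc38a10*, and TGATGNAA in those of *Slc1a4* and *Slc7a7*. The other matches were in members below the level taken as expressed. CTTTGAT was in windows of *Slc7a1* (WT mean 0.228 FPKM, mutant mean 0.155 FPKM), *Slc6a16* (WT mean 0.489 FPKM, mutant mean 0.0187 FPKM) and *Slc38a9* (WT mean 0.422 FPKM, mutant mean 0.520 FPKM). TGATGNAA was in windows of *Slc7a11* and *Slc6a21*. The sequence before *Slc3a1*, the member with the largest change, and that before *Slc38a10* are given with any match in capitals, each 250 bases long, 5′ to 3′ on the strand of the gene, which is the plus strand for *Slc3a1* (chr17:85028097-85028346) and the minus strand for *Slc38a10* (chr11:120151352-120151601).
Slc3a1: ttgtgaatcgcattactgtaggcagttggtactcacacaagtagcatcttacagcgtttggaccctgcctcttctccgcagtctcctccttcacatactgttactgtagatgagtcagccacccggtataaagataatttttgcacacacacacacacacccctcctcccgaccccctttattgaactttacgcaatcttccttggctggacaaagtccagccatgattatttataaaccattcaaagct
Slc38a10: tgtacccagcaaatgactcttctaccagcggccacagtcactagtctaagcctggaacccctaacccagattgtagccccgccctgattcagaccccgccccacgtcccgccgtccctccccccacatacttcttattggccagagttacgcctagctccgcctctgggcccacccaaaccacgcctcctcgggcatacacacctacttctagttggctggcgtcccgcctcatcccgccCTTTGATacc
A match is a description of letters, and none in a window says nothing of the factor.

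The lists of markers of liver cell types moved with the genotype as well, and their part in the results for the transporters was not tested. For comparison, 37.4% of all genes tested were higher and 19.6% lower by adjusted p, and 8.17% and 4.52% past both thresholds. Some listed genes passed the filter only through the WT livers, such as *Slc4a1* (WT mean 3.41 FPKM, mutant mean 0.178 FPKM), *Mpo* (WT mean 2.23 FPKM, mutant mean 0.274 FPKM) and *Epcam* (WT mean 1.29 FPKM, mutant mean 0.421 FPKM). For such genes the filter favoured the direction of the call. The hepatocyte list was high in all livers, with a summed level of 75349, 76042 and 72602 FPKM in the WT and 39057, 39179.6 and 38891 FPKM in the mutant livers, most of it *Alb*, and its 7 genes went both ways, with 4 lower and 2 higher by adjusted p. Past both thresholds were *Apoa1* (WT mean 17466 FPKM, mutant mean 4332 FPKM) and *Ttr* (WT mean 11863 FPKM, mutant mean 4443 FPKM), both lower, and the 2 higher by adjusted p were *Cps1* (WT mean 89.02 FPKM, mutant mean 177 FPKM) and *Serpina1c* (WT mean 2683 FPKM, mutant mean 4307 FPKM). *Apob* was above WT in every mutant liver but did not pass the test. Of the erythroid list, 5 of the 6 tested of 9 genes were lower by adjusted p and 4 past both thresholds, *Hbb-bs*, *Hbb-bt*, *Slc4a1* and *Alas2*, and its sum, led by *Hba-a1*, was 2616, 2413 and 2656 FPKM in the WT and 1278, 1241 and 1238 FPKM in the mutant livers. Of the granulocyte list, 5 of 6 were lower past both thresholds and *Prtn3* higher (3.26 FPKM in WT and 20.6 FPKM in mutant livers). The lower ones were *S100a8*, *S100a9*, *Ngp*, *Mpo* and *Elane*, and the sum, led by *S100a9* in WT and by *Prtn3* in mutant livers, was 309, 329 and 317 FPKM in the WT and 47.1, 49.5 and 51.5 FPKM in the mutant livers. Of the 6 Kupffer and macrophage genes 5 were higher by adjusted p and 2 past both thresholds, *Clec4f* (WT mean 48.5 FPKM, mutant mean 158 FPKM) and *Csf1r* (WT mean 12.4 FPKM, mutant mean 26.4 FPKM), with a sum led by *Clec4f* of 109.8, 112 and 113 FPKM in the WT and 274, 273 and 272 FPKM in the mutant livers. *Vsig4* had 26.5 FPKM in WT and 43.6 FPKM in mutant livers.

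Of the lymphocyte list, the B cell genes *Cd79a* (WT mean 10.4 FPKM, mutant mean 1.48 FPKM) and *Cd79b* (WT mean 10.7 FPKM, mutant mean 1.63 FPKM) were lower past both thresholds, of 4 tested of 6 genes, while *Nkg7* (WT mean 2.83 FPKM, mutant mean 4.62 FPKM) was higher by adjusted p. *Cd3e*, not tested, had 0.205 FPKM in WT and 0.502 FPKM in mutant livers without overlap. The sum, led by the mean of *Cd79b* in WT and by *Nkg7* in mutant livers, was 24.2, 26.4 and 25.98 FPKM in the WT and 8.96, 9.06 and 9.32 FPKM in the mutant livers. Of the stellate cell and fibroblast list, 6 of 6 were lower by adjusted p and 4 past both thresholds, *Lrat*, *Col1a1*, *Col3a1* and *Reln*, and the sum, led by *Col3a1*, was 62.9, 64.2 and 63.3 FPKM in the WT and 14.2, 14.1 and 15.1 FPKM in the mutant livers. Of the endothelial list, 5 of 5 were lower by adjusted p and 1 past both thresholds, *Stab2*, and the sum, led by *Clec4g*, was 58.97, 59.8 and 59.5 FPKM in the WT and 41.5, 40.5 and 42.6 FPKM in the mutant livers. Of the cholangiocyte list, 2 of the 4 tested of 5 genes were lower by adjusted p, *Epcam* and, past both thresholds, *Spp1*, the most abundant, and the sum was 43.1, 41.6 and 39.6 FPKM in the WT and 19.1, 18.5 and 19.3 FPKM in the mutant livers, with *Krt19* next at 2.51 FPKM in WT and 1.94 FPKM in mutant livers. *Sox9* went the other way without overlap, at 0.528 ± 0.0927 FPKM in WT and 0.811 ± 0.139 FPKM in mutant livers (SD, n = 3 each), but did not pass the test (limma adjusted p = 0.0518), and *Krt7*, not tested, had 0.357 FPKM in WT and 0.450 FPKM in mutant livers with overlap. Of the 6 measured genes of the pancreas acinar list, only *Cela1* was tested, and it rose, with 2.59 ± 0.457 FPKM in WT and 34.1 ± 4.04 FPKM in mutant livers (SD, n = 3 each). *Cela2a* was next in level, and *Ctrb1* and *Cpa1* were listed at 0 in every liver. The sum of that list was 3.16, 2.30 and 3.43 FPKM in the WT and 37.9, 29.96 and 35.3 FPKM in the mutant livers.

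Among known targets of β-catenin in liver, 11 of 13 genes were higher and 1 lower by adjusted p, and 8 higher and 0 lower past both thresholds. Of all genes tested, 37.4% were higher and 19.6% lower by adjusted p, and 8.17% and 4.52% past both thresholds. The 8 targets past both were *Axin2*, *Sp5*, *Notum*, *Tbx3*, *Glul*, *Oat*, *Rhbg* and *Cyp1a2*. *Cyp2e1* was the most abundant, at 1672 ± 118 FPKM in WT and 1422 ± 12.2 FPKM in mutant livers (SD, n = 3 each), and *Glul*, for glutamine synthetase, had 103 ± 1.25 FPKM in WT and 626 ± 7.13 FPKM in mutant livers (SD, n = 3 each).

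Cells short of amino acids raise a set of genes through the kinase GCN2 and the factor ATF4, several carriers such as SNAT2 among them. Of 24 such genes, 23 were tested. With the adjusted p alone 6 were higher, 10 lower and 7 neither, next to 37.4% of all genes tested higher and 19.6% lower. Past both thresholds, 5 were lower and 2 higher, next to 4.52% and 8.17% of all genes tested. The 5 were *Asns*, for asparagine synthetase, the serine synthesis genes *Phgdh* and *Psat1*, *Nupr1*, and *Fgf21*. *Asns* had 11.7 ± 0.626 FPKM in WT and 2.41 ± 0.359 FPKM in mutant livers (SD, n = 3 each). *Fgf21*, for a liver hormone, had 41.3, 42.7 and 43.4 FPKM in the WT and 0.110, 0.345 and 0 FPKM in the mutant livers. The 2 that rose were *Aars* (WT mean 12.8 FPKM, mutant mean 34.7 FPKM), for alanyl-tRNA synthetase, and *Ddit4* (WT mean 4.63 FPKM, mutant mean 17.9 FPKM), an inhibitor of mTORC1. *Atf4* itself had 40.9, 42.3 and 26.7 FPKM in the WT and 42.2, 44.5 and 44.6 FPKM in the mutant livers, with 1 WT liver below the rest. *Atf5* was the most abundant in both groups, at 432 ± 12.3 FPKM in WT and 222 ± 1.64 FPKM in mutant livers (SD, n = 3 each), and *Shmt2*, next in mutant livers, had 41.6 ± 3.31 FPKM in WT and 64.4 ± 3.09 FPKM in mutant livers (SD, n = 3 each).

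Lysosomal amino acids are sensed for mTORC1 by the Rag GTPases, the Ragulator subunits and their regulators. Of 21 such genes, 19 were tested, 0 passed both thresholds, and with the adjusted p alone 7 were higher and 4 lower. Of all genes tested, 37.4% were higher and 19.6% lower by adjusted p, and the counts lie near these shares. Past both thresholds, 8.17% of all genes tested were higher and 4.52% lower. The 2 most abundant of the list were *Lamtor2* (WT mean 56.05 FPKM, mutant mean 45.7 FPKM) and *Lamtor4* (WT mean 38.7 FPKM, mutant mean 45.6 FPKM). Of 12 measured genes for other amino acid carriers and partner proteins, 6 were tested. *Slc16a10*, for TAT1, a carrier of aromatic amino acids, had 1.44, 1.45 and 1.41 FPKM in the WT and 14.01, 14.2 and 13.1 FPKM in the mutant livers, and rose with a log2 fold change of 2.60 ± 0.0513 (SE, adjusted p = 3.33e-07 by limma). *Slc17a8*, for a vesicular glutamate carrier, fell, at 1.55 ± 0.0713 FPKM in WT and 0.251 ± 0.0612 FPKM in mutant livers (SD, n = 3 each). *Pqlc2*, for the lysosomal carrier of cationic amino acids, was the most abundant of the list in WT livers, at 5.10 ± 0.0974 FPKM in WT and 3.28 ± 0.503 FPKM in mutant livers (SD, n = 3 each), and *Slc16a10* in mutant livers.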

How the data were processed

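Libraries of 3 WT and 3 *β-catenin Δ(ex3)/+* (mutant) livers were compared. Gene-level FPKM were deposited and used as they stand. The submitters' processing notes name cutadapt 1.9, HISAT2 2.0.4, StringTie 1.3.4d, DESeq2 and edgeR. The genome build is not given in the sources used here, and 28911 of the 31950 genes have the start and end of GENCODE M21 (GRCm38). FPKM are not counts, so limma 3.58.1 (lmFit, eBayes with trend) in R 4.3.3 was fitted to log2(FPKM + 1) for 13243 genes with a mean of at least 0.5 FPKM, with Benjamini-Hochberg adjustment over all of them. The fit was tested on simulated data, where genes changed 4-fold or more that passed the filter all passed the adjusted p, and some with low FPKM missed the fold threshold. Single values were compared by two-sided exact permutation tests in scipy 1.17.1. Other tables used Python 3.11.15, pandas 2.3.3, numpy 2.4.6 and matplotlib 3.10.9.

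The genes named are all expressed members, with values in every liver for members past both thresholds, the 8 most abundant, and heavy chains with partners; members below 0.5 FPKM are named where 1 group reached it, and from other lists the genes past both thresholds and the 2 most abundant, in both cases by the mean of all 6 livers. Further genes named were chosen with their values known. A symbol on more than 1 locus (*Ddit3*) was read from the longest. Members and lists were chosen with earlier results of these data known, and 2 genes of the lists are not reported here and were taken out of the list counts and sums. The fit was repeated without the filter, with a filter at 1 FPKM, a pseudocount of 0.1, eBayes without trend, median-ratio scaling, quantile normalization, a block for the replicate number, and without each liver.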

Additional observations from a re-analysis of the deposited data

How the results depend on the processing

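*Slc3a1* and *Slc6a9* passed both thresholds under every alternative run. Of 343 log2 fold changes of the 23 expressed members and the 4 genes set aside, 326 kept their direction and their call by both thresholds together, 6 passed them anew (*Slc43a3*, *Slc7a2* and *Slc43a2*) and 11 changed sign. Those 11 belong to 6 members, none past both thresholds, *Slc1a4* (-0.0012 with median-ratio scaling, -0.14 with quantile normalization), *Slc6a6* (-0.00078 with quantile normalization), *Slc6a8* (-0.0011 with quantile normalization, -0.011 without WT replicate 2), *Slc38a6* (-0.011 and -0.0072 with these scalings), *Slc36a1* (0.14 without mutant replicate 1) and *Slc36a4* (0.13 and 0.09 without WT replicates 2 and 3, 0.28 without mutant replicate 2). With each liver left out, the ranges were -0.82 to 0.14 for *Slc36a1*, -0.011 to 0.18 for *Slc6a8* and -0.28 to 0.28 for *Slc36a4*.

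With each liver left out in turn, members past both thresholds ranged from 2 to 3 higher and from 0 to 1 lower, and those with an adjusted p under 0.05 from 8 to 9 higher and from 3 to 5 lower. Of all genes tested in these fits, from 8.00% to 8.31% were higher and from 4.39% to 4.57% lower past both thresholds, and from 33.0% to 35.5% higher and from 16.8% to 18.4% lower by adjusted p. The lowest count, 3 lower, came without WT replicate 3 and without mutant replicate 2. The 1 lower past both thresholds was *Slc43a2*, without WT replicate 1, a member that passed the filter only through the WT livers. With no expression filter, which tests more genes, 11 were higher and 10 lower by adjusted p, 20.4% and 18.5% of the 54 tested, next to 19.8% and 12.4% of all genes. Of the 6 lower members of the 23, *Slc38a7* and *Slc43a1* were then no longer past it, and the added ones, 2 higher and 6 lower, lie below the filter. With the replicate block, 2 were higher and 0 lower past both thresholds, and 8 were higher and 3 lower by adjusted p, with *Slc38a7*, *Slc43a1*, *Slc6a6* and *Slc7a4* no longer past it. Of all genes tested with the block, 8.12% were higher and 4.52% lower past both thresholds, and 34.4% and 18.1% by adjusted p. Deviations of livers with the same number correlated at 0.0268, 0.0213 and -0.00540. These values are near 0, but they are a description, and whether livers with the same number share a batch was not tested. FPKM keep no counts, and values under 0.1 FPKM rest on few fragments at these depths.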
